A study of Mus musculus with 16 samples.

Results

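Matrix metalloproteinases are zinc-dependent enzymes that cut collagen, elastin and other parts of the extracellular matrix, and the tissue inhibitors of metalloproteinases (TIMPs) bind and block them. The 10 genes described here were taken by name from the deposited counts: the 7 protease genes Mmp2, Mmp3, Mmp9, Mmp12, Mmp13, Mmp14 and Mmp19, and the 3 inhibitor genes Timp1, Timp2 and Timp3. They are 10 of 55356 named genes in the file, and 9 of them were among the 10634 genes with enough counts to be tested. Mmp9 was not. RNA came from brachiocephalic arteries of 16 female mice, 4 in each of 4 groups. The first group was Apoe-/- mice that ate a Western-type diet (0.2% cholesterol, 21.2% fat) for 24 weeks, the second was Apoe-/-Mif-/- mice after the same 24 weeks, and the other groups were the same genotypes after 42 weeks. The diet began at 6 weeks of age in every mouse. All groups lacked Apoe, whose loss raises plasma cholesterol and leads to plaques, so there was no group without Apoe deletion and none on chow. The product of Mif, macrophage migration inhibitory factor, is an inflammatory cytokine that also attracts leukocytes. Each library pooled the lysates of 3 to 4 sections of 5 µm with the whole vessel on them, a mixed tissue in which fewer cells of a type and less RNA per cell cannot be told apart.

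Proteases of this family are secreted as inactive precursors, apart from membrane-bound members such as the product of Mmp14, and are activated by removal of a propeptide. In atherosclerotic arteries they are known from macrophages, smooth muscle cells and fibroblasts, where they remodel the fibrous cap, the elastic layers and the plaque core. Transcripts measure neither secretion nor activation, which set how much active enzyme a tissue holds.

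Mmp13, Mmp12 and Mmp3, the 3 members with an unadjusted p under 0.05 in any comparison, lie together on mouse chromosome 9. Among protein-coding genes of the RefSeq table (GRCm38.p6) they follow in the order Mmp13, Mmp12, Mmp1b, Mmp3. The table of promoter windows from RefSeq, 250 bases before to 50 after an annotated start, held 7 of the 10 members and 8 windows in all, with a pair of starts for Mmp12. The 7-letter site of AP-1, a dimer of Fos and Jun family proteins that has long been studied as an activator of Mmp13 and Mmp3 transcription, was searched on both strands as TGAGTCA or TGACTCA. These 3 genes were the only members in the table with a match, at 1 of the Mmp12 starts, and 1690 of 32544 windows of this length (5.19%) held one. The 250 bases before the start are shown because the match lies at a similar distance from the annotated start in all 3. Its first base is 35, 44 and 46 bases before the start of Mmp13, Mmp12 and Mmp3. A TATAAA match on either strand, found in 13.6% of all windows, began 16 and 7 bases before the start of Mmp13 and Mmp3. In the Mmp12 window it began 4 bases after the start, so its distance to the AP-1 match differed between the 3 genes. Capitals mark the match, and all 3 genes are on the + strand.
Mmp13, chr9:7272264-7272513: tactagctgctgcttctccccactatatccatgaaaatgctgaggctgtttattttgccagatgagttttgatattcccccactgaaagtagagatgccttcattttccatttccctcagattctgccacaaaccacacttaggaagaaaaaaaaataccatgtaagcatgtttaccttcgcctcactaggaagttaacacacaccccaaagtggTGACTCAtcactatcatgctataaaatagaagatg
Mmp12, chr9:7347124-7347373: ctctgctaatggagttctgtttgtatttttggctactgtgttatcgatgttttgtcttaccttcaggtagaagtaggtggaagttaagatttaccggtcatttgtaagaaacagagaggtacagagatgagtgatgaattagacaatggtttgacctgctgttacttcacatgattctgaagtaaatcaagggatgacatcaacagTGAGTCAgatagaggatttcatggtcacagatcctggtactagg
Mmp3, chr9:7445572-7445821: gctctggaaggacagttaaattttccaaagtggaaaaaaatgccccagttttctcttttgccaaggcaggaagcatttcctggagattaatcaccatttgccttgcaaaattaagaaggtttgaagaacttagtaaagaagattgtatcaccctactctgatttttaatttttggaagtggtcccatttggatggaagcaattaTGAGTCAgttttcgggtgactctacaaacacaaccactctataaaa
The windows of Timp1, Timp2, Timp3 and Mmp14 held no AP-1 match. All 4 held a GC box (GGGCGG or CCGCCC), found in 35.9% of all windows, and none of the Mmp13, Mmp12 or Mmp3 windows did. A match is a description of the letters and not a bound site. No binding was measured in these mice.

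Total counts ran from 378066 (library 1 of the 42-week Apoe-/- group) to 8649518. Mitochondrial transcripts made up 0.751% to 10.2% of counts. Mif itself lay between 23.2 and 301 CPM in the 8 Apoe-/- libraries and between 2.39 and 19.9 CPM in the 8 Apoe-/-Mif-/- libraries, which did not overlap. CPM are counts scaled to a library total of 1e6 after TMM scaling, the composition correction of edgeR. 3 libraries stood apart: library 1 of the 42-week Apoe-/- group was the shallowest, library 1 of the 24-week Apoe-/- group held the second highest summed level of white fat markers (26788 CPM) and the highest of brown fat markers (16206 CPM), and library 4 of that group held the highest of thymocyte and T cell markers (5845 CPM). Library 2 of the 42-week Apoe-/-Mif-/- group held still more white fat markers (30439 CPM) and was not among these 3. The column names of the file carry the letter C for the 24-week Apoe-/-Mif-/- libraries and B for all 12 libraries of the remaining groups. These names could be plate positions, but the labels do not say so. If they are, row and group cannot be told apart for the 24-week Apoe-/-Mif-/- libraries. Names within each group are also consecutive. Macrophage markers, which define the main immune cells of plaque, were present in every library, with all 16 of them counted in all 4 libraries of the 42-week Apoe-/- group and 14 or 15 in the others. Of 12 markers of contractile smooth muscle, the main cell of the arterial wall, none was at 0 throughout a group, and their sum ran from 937 to 17627 CPM.

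The members together took 0.199% to 0.938% of all counts in a library. Per kilobase of transcript Timp1 was highest, with a median level over 16 libraries of 729.7 CPM per kb, followed by Mmp3 (642), Timp2 (436) and Mmp2 (289). Then came Mmp12 (166), Mmp14 (77.3), Mmp13 (43.2) and Timp3 (16.7). Mmp19 (1.37) and Mmp9 (0) were close to or under the limit of detection. Neighbours in this order were often not separable: Timp1 exceeded Mmp3 in 9 of 16 libraries, Timp2 exceeded Mmp2 in 8, and Mmp14 exceeded Mmp13 in 10. With length taken as the union of all exons, Mmp13 (43.2) came before Mmp14 (33.6). Mmp3 was the highest member per kilobase in 7 libraries, Timp1 in 7, Mmp12 in 1 and Mmp2 in 1. Levels differed widely over the 16 libraries. Timp2 was the steadiest, with a 5.93-fold span between its lowest and highest library. The span was 10.1-fold for Mmp2, 16.8-fold for Timp1, 19.0-fold for Mmp3, 27.9-fold for Mmp12, 62.1-fold for Mmp14, 91.0-fold for Timp3 and 373-fold for Mmp13. These spans run over all groups, so they hold differences between groups as well as between mice of a group.

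**Figure D1:**
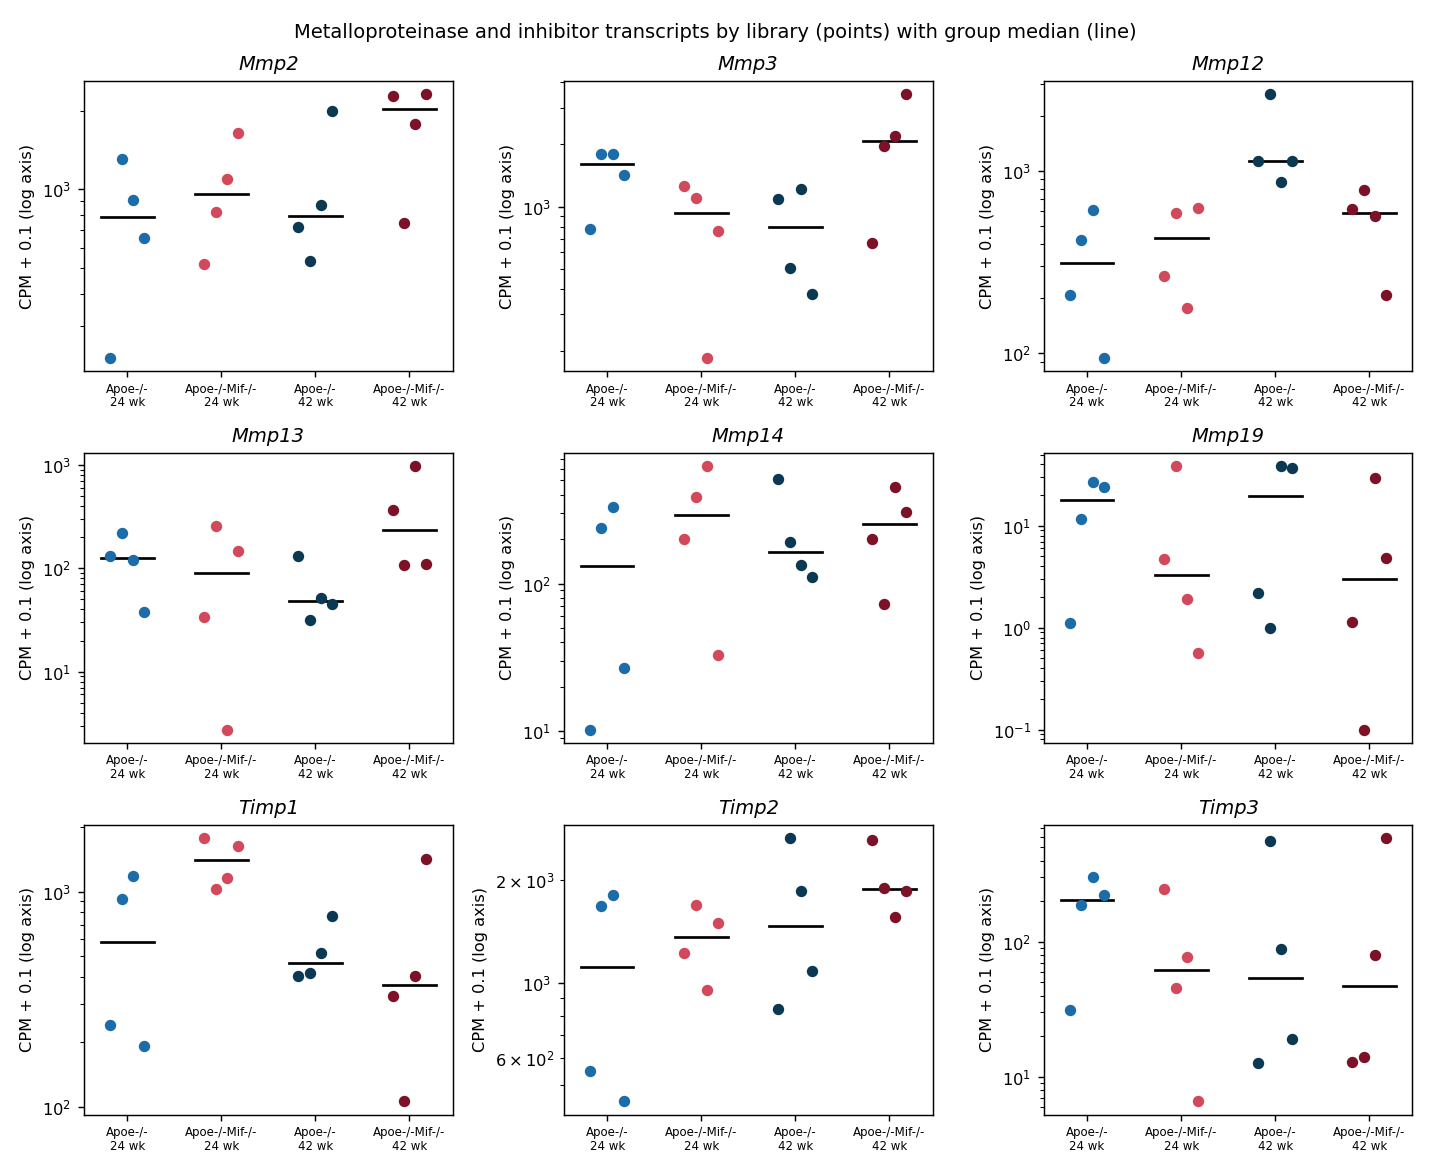
CPM of the 9 tested members (log axis, with 0.1 added) in each of the 16 libraries, by group, with a line at the group median. In the Mmp12 panel the 4 libraries of the 42-week Apoe-/- group, at 866 to 2635 CPM, lie above the other 12, and in the other panels the groups overlap over most of their range.

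No member passed the edgeR quasi-likelihood test (Benjamini-Hochberg adjusted p under 0.05) in any of the 7 comparisons. The test itself called few genes of any kind: 0.047% of all tested genes for Mif deletion at 24 weeks, 0% at 42 weeks, 0% for 42 against 24 weeks in Apoe-/- mice, 0.122% in Apoe-/-Mif-/- mice, 0% for Mif deletion over both durations, 0.0376% for duration over both genotypes and 0.686% for the interaction, which asks whether the effect of Mif deletion differed between durations. At an unadjusted p under 0.05 there were 0, 2, 1, 1, 0, 1 and 1 members of 9 in these comparisons, against 7.33%, 17.3%, 12.2%, 13.1%, 13%, 13.6% and 14.2% of all genes. The share of the members was thus near the background, and all of these were Mmp3, Mmp12 or Mmp13. DESeq2 called 1 member, Mmp12, for duration in Apoe-/- mice, where it called 4.01% of all genes, and again over both genotypes, where it called 5.25%. In the other comparisons, in the order above, it called 0 members and 2.19%, 9.94%, 6.2%, 4.32% and 5.89% of all genes. Between single groups, the CPM of 0, 1, 1 and 0 members did not overlap (Mif deletion at 24 and 42 weeks, then duration in Apoe-/- and in Apoe-/-Mif-/- mice), as for 3.84%, 2.2%, 4.16% and 4.38% of all tested genes. Both were Mmp12. Without TMM scaling, Timp1 did not overlap either for duration in Apoe-/-Mif-/- mice. The share of all genes without TMM scaling was not computed, so this has no background beside it. Limma called no member and no other gene in any comparison, on voom weights or on the deposited variance-stabilised values. The 4 comparisons of single groups share libraries in pairs, so their values are given side by side and not as separate evidence. The median log2 difference of the 9 tested members was 0.26, 0.13, 0.33 and 0.57 (Mif deletion at 24 and 42 weeks, then duration in Apoe-/- and in Apoe-/-Mif-/- mice), beside -0.18, 0.09, -0.12 and 0.12 over all tested genes. Another scaling, the size factors of DESeq2 used within edgeR, shifted the log2 difference by a median over genes of 0.07, 0.19, 0.30 and 0.41 in the same order. Under it Mmp14 and Timp1 changed sign for Mif deletion at 42 weeks, Timp1 for duration in Apoe-/- mice and Mmp14 for duration in Apoe-/-Mif-/- mice.

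**Figure D2:**
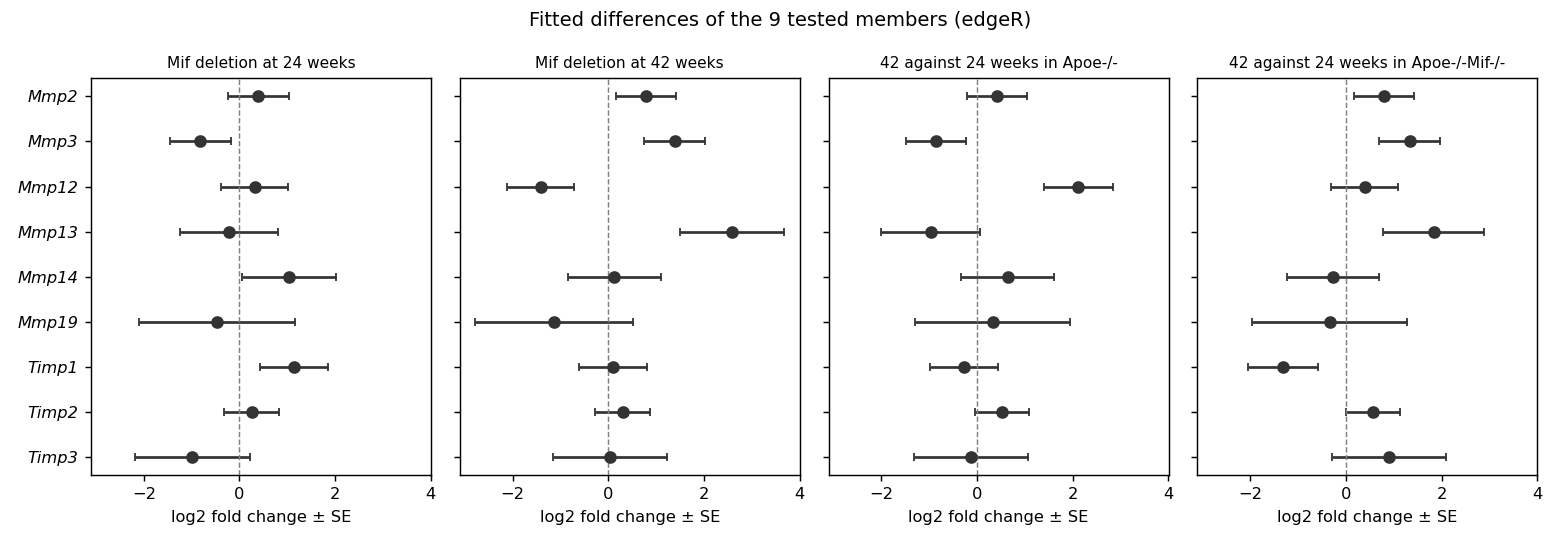
Fitted log2 fold changes (edgeR) of the 9 tested members in the 4 comparisons of single groups. Bars show 1 standard error on either side, worked back from the test statistic. Mmp12 lies at 2.12 for duration in Apoe-/- mice and at -1.41 for Mif deletion at 42 weeks, where Mmp3 and Mmp13 lie at 1.39 and 2.59.

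Mmp12, macrophage elastase, which cuts elastin and is made mainly by macrophages, was highest in Apoe-/- mice after 42 weeks. The 4 libraries of that group held 1140.3, 2635, 866 and 1131 CPM. After 24 weeks the Apoe-/- libraries held 208, 418, 608 and 94.4 CPM and the Apoe-/-Mif-/- libraries 266, 587, 178 and 623 CPM. The 42-week Apoe-/-Mif-/- libraries held 615, 781, 563 and 209 CPM. The lowest 42-week Apoe-/- library was thus above the highest of all other libraries, and the other 3 groups overlapped one another. Between Apoe-/- mice the mean went from 332 ± 228 to 1443 ± 805 CPM (SD, n = 4), a fitted difference of 2.12 ± 0.72 (log2, SE) or 4.34-fold that did not pass in edgeR (adjusted p = 0.322, unadjusted p = 0.00569). Groups that do not overlap in this direction were found for 1.06% of all tested genes. That share is for the 24-week and 42-week Apoe-/- groups alone. The share of genes separated from all other libraries was not computed. In DESeq2 the same difference was 2.56 with an adjusted p of 0.0465. Without the 3 libraries that stand apart it was 1.58 (edgeR adjusted p = 0.602). These include the 24-week Apoe-/- libraries at 208 and 94.4 CPM, which held the least Mmp12 of their group.

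The Mif comparison at 42 weeks used the same 42-week Apoe-/- libraries. Mmp12 averaged 542 ± 241 CPM (SD, n = 4) without Mif, a fitted difference of -1.41 ± 0.71 (log2, SE; edgeR adjusted p = 0.296, DESeq2 adjusted p = 0.464). All 4 libraries lay below all 4 with Mif, as did those of 1.03% of all tested genes. The column names of both groups carry the letter B. Without the 42-week Apoe-/- library at 2635 CPM the difference was -0.90. At 24 weeks the difference was 0.32 ± 0.69, and it was -0.33 without the 3 libraries, which include the 24-week Apoe-/- libraries with the least Mmp12. Duration in Apoe-/-Mif-/- mice gave 0.39 ± 0.69. The test of whether the effect of Mif deletion differed between durations did not pass (log2 -1.73 ± 0.99, edgeR adjusted p = 0.429). Over both genotypes the duration difference was 1.25 ± 0.50 (edgeR adjusted p = 0.258), and DESeq2 gave 1.76 with an adjusted p of 0.0468.

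Macrophage markers were also higher in the older Apoe-/- mice, with overlap. The summed level of 16 macrophage markers, which hold Cd68, Lyz2 and the C1q chains, was 2577 to 21459.9 CPM in the 24-week Apoe-/- group and 18744 to 44177 CPM in the 42-week Apoe-/- group. It was 11238 to 24494 CPM and 13430.1 to 40805 CPM in Apoe-/-Mif-/- mice at 24 and 42 weeks. Set against that sum, Mmp12 came to 1.76% to 8.07% in the 24-week and 4.07% to 6.08% in the 42-week Apoe-/- libraries, which overlap. In the 42-week Apoe-/-Mif-/- libraries it came to 1.51% to 4.58%, overlapping at 1 library. The part of macrophage number in the Mmp12 difference was not tested.

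Mmp3, stromelysin-1, which cuts proteoglycans and other matrix proteins and can activate other proteases of the family, was the most abundant protease per kilobase. The 24-week Apoe-/- libraries held 777, 1792, 1805 and 1429 CPM and the 24-week Apoe-/-Mif-/- libraries 1252, 1097, 185 and 764 CPM. The 42-week Apoe-/- libraries held 1089.7, 506, 1217 and 376 CPM and the 42-week Apoe-/-Mif-/- libraries 664, 1961, 2198 and 3506 CPM. In the last group 3 libraries were above every other library of the study, and the remaining 1 lay below every 24-week Apoe-/- library and within the range of the other 2 groups. Mif deletion came with a lower mean at 24 weeks (1451 ± 482 against 824 ± 473 CPM; log2 -0.82 ± 0.63 SE; edgeR adjusted p = 0.892) and a higher mean at 42 weeks (797 ± 418 against 2082 ± 1164 CPM; log2 1.39 ± 0.64; edgeR adjusted p = 0.259). Neither passed, and the difference between these effects did not either (log2 2.20 ± 0.90, edgeR adjusted p = 0.245, unadjusted p = 0.0189). Duration gave -0.86 ± 0.63 in Apoe-/- and 1.34 ± 0.64 in Apoe-/-Mif-/- mice (edgeR adjusted p = 0.613 and 0.364). The summed level of 12 fibroblast markers ran from 8916 to 25385 CPM in the 42-week Apoe-/- group and from 5786 to 47042 CPM in the 42-week Apoe-/-Mif-/- group. The highest fibroblast level and the highest Mmp3 level were in the same library, while the Apoe-/-Mif-/- library with the lowest fibroblast level held 1961 CPM of Mmp3. The part of fibroblast content was not tested.

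Mmp13, collagenase-3, the main collagenase of rodents for fibrillar collagen, had the widest span between its lowest and highest library among the members with counts in all 16. Its libraries held 131, 220.0, 122 and 37.5 CPM (24-week Apoe-/-), 34.1, 255, 2.64 and 146 CPM (24-week Apoe-/-Mif-/-), 133, 31.6, 52.0 and 45.3 CPM (42-week Apoe-/-) and 367, 107, 983 and 109 CPM (42-week Apoe-/-Mif-/-). At 42 weeks 3 of the 4 Apoe-/- libraries were below all 4 libraries without Mif and the remaining 1 lay among them. The means were 65.4 ± 45.7 and 391 ± 413 CPM (SD, n = 4), a fitted difference of 2.59 ± 1.09 (log2, SE) that did not pass (edgeR adjusted p = 0.225, unadjusted p = 0.0229). The Apoe-/-Mif-/- library with 983 CPM held 35.4% of the Mmp13 level summed over all 16 libraries, and without it the difference was 1.58. At 24 weeks Mif deletion gave -0.22 ± 1.03. Mmp13 is also a gene of hypertrophic cartilage, and chondrocyte markers reached 9723 CPM in library 1 of the 42-week Apoe-/-Mif-/- group, which held 367 CPM of Mmp13. The library with the most Mmp13 held 1650.3 CPM of chondrocyte markers. At 42 weeks the sum of these 12 markers ran from 386 to 2479.8 CPM with Mif and from 336 to 9723 CPM without it, and 1 of the 12 was at 0 in all 4 libraries with Mif. The part of cartilage-like tissue in the Mmp13 level was not tested.

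The gelatinases were unlike each other. Mmp2, gelatinase A, a product of fibroblasts and smooth muscle cells, was counted in every library. Its group means were 775 ± 453 and 1021 ± 479 CPM at 24 weeks and 1028 ± 659.6 and 1774 ± 727 CPM at 42 weeks (Apoe-/- first, SD, n = 4). At 42 weeks the libraries held 717, 532, 869 and 1996 CPM with Mif and 2264, 744, 1779 and 2308 CPM without it, so that 2 libraries of each group lay within the range of the other. The difference was 0.79 ± 0.63 (log2, SE; edgeR adjusted p = 0.529). Mmp9, gelatinase B, an enzyme of neutrophils and macrophages, was nearly absent. It had 39 counts in the whole study, 34 of them in library 3 of the 24-week Apoe-/- group, 4 in library 3 of the 24-week Apoe-/-Mif-/- group and 1 in library 1 of the 42-week Apoe-/- group. A count of 0 in the other 13 libraries allows at most 0.507 to 4.18 CPM (3 counts, counting error only), so no comparison was possible at this depth. Several other neutrophil genes were scarce too: S100a8 had 146 counts in 11 libraries and Mpo 8 in 2. Csf3r had 830 counts in 12 libraries and Cxcr2 41 in 15. Lcn2 was by far the highest of the list, with 26404 counts in 16 libraries.

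Mmp14, the membrane-type protease MT1-MMP that activates the Mmp2 product at the cell surface, ranged from 10.1 to 627 CPM. Its group means were 151 ± 158, 311 ± 255, 237 ± 185 and 258 ± 161 CPM (24-week Apoe-/-, 24-week Apoe-/-Mif-/-, 42-week Apoe-/-, 42-week Apoe-/-Mif-/-; SD, n = 4), and every group held a library at or below 111 CPM and another at or above 331 CPM. The largest of its differences was 1.04 ± 0.98 (log2, SE) for Mif deletion at 24 weeks (edgeR adjusted p = 0.933). Mmp19, a protease of wide tissue distribution, was near the limit of detection. It had 935 counts in 15 libraries and at least 10 counts in 8, with a highest level of 38.5 CPM and 0 counts in library 2 of the 42-week Apoe-/-Mif-/- group, which allows up to 4.18 CPM. High and low libraries occurred in all 4 groups, and its differences had standard errors of 1.63 to 1.65 on the log2 scale in the comparisons of single groups.

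Among the inhibitors, Timp1, which blocks most soluble metalloproteinases and is induced in injured tissue, was highest in 24-week mice without Mif. These 4 libraries held 1779, 1028, 1159.9 and 1637 CPM, against 241, 920.2, 1186 and 191 CPM in 24-week Apoe-/- mice. The 42-week libraries held 405, 417, 516 and 772 CPM with Mif and 326, 106, 407 and 1411 CPM without it. In each of the other groups at most 1 library reached the lowest of the 24-week Apoe-/-Mif-/- libraries, and none did in the 42-week Apoe-/- group. Mif deletion at 24 weeks gave means of 634 ± 496 and 1401 ± 363 CPM (SD, n = 4; log2 1.14 ± 0.72 SE) and did not pass (edgeR adjusted p = 0.830). Duration in Apoe-/-Mif-/- mice gave -1.32 ± 0.72 (edgeR adjusted p = 0.443). The 24-week Apoe-/-Mif-/- libraries were the 4 with the letter C in their column names. Without the 3 libraries that stand apart, 2 of which are the Apoe-/- libraries with the least Timp1 at 24 weeks, the Mif difference was 0.40 (edgeR adjusted p = 1.00).

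Timp2, which blocks metalloproteinases and also takes part in the activation of the Mmp2 precursor by Mmp14, was the most even member. Its group means were 1119 ± 718 and 1338 ± 323 CPM at 24 weeks and 1605 ± 823 and 1979.7 ± 446 CPM at 42 weeks (Apoe-/- first, SD, n = 4). Duration gave 0.52 ± 0.57 and 0.57 ± 0.57 (log2, SE) in the 2 genotypes (edgeR adjusted p = 0.757 and 0.706). Timp3, which binds to the matrix and also blocks ADAM and ADAMTS proteases, ranged from 6.48 to 589.6 CPM. Within the 42-week groups single libraries set its mean: the Apoe-/- libraries held 12.6, 558, 88.1 and 18.8 CPM and the Apoe-/-Mif-/- libraries 12.8, 13.9, 80.2 and 589.6 CPM. The Mif difference at 42 weeks was 0.04 ± 1.19 (edgeR adjusted p = 0.990), and it was -2.35 without the library with 589.6 CPM.

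Of the 7 proteases summed per kilobase, Mmp12 made up 18.8% to 57.5% in the 42-week Apoe-/- libraries and 1.98% to 14.4% in the other 12, with no overlap. Mmp3 made up 16.8% to 52.8% in the 42-week Apoe-/- libraries and 58.1% to 74.6% in the 24-week Apoe-/- libraries, which do not overlap. In Apoe-/-Mif-/- libraries the Mmp3 share was 13.6% to 67.6% at 24 weeks and 24.7% to 67.4% at 42 weeks, overlapping both of these ranges. The shares within a library do not depend on how libraries were scaled to one another. The ratio of Mmp12 to Mmp3 per kilobase was 0.113 ± 0.0574 in 24-week and 1.25 ± 1.04 in 42-week Apoe-/- libraries (SD, n = 4), and 0.315 ± 0.165 and 0.205 ± 0.185 in Apoe-/-Mif-/- libraries at 24 and 42 weeks. With the union of all exons as length, which is longer for Mmp12 and the same for Mmp3, the ratios were 0.0562, 0.621, 0.157 and 0.102 (24-week Apoe-/-, 42-week Apoe-/-, then Apoe-/-Mif-/- at 24 and 42 weeks). On that length Mmp12 made up 10.8% to 43.0% in the 42-week Apoe-/- libraries and 1.05% to 8.13% in the other 12. These shares and ratios reuse the Mmp12 and Mmp3 levels given above, were formed after those levels were known and have no test.

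**Figure D3:**
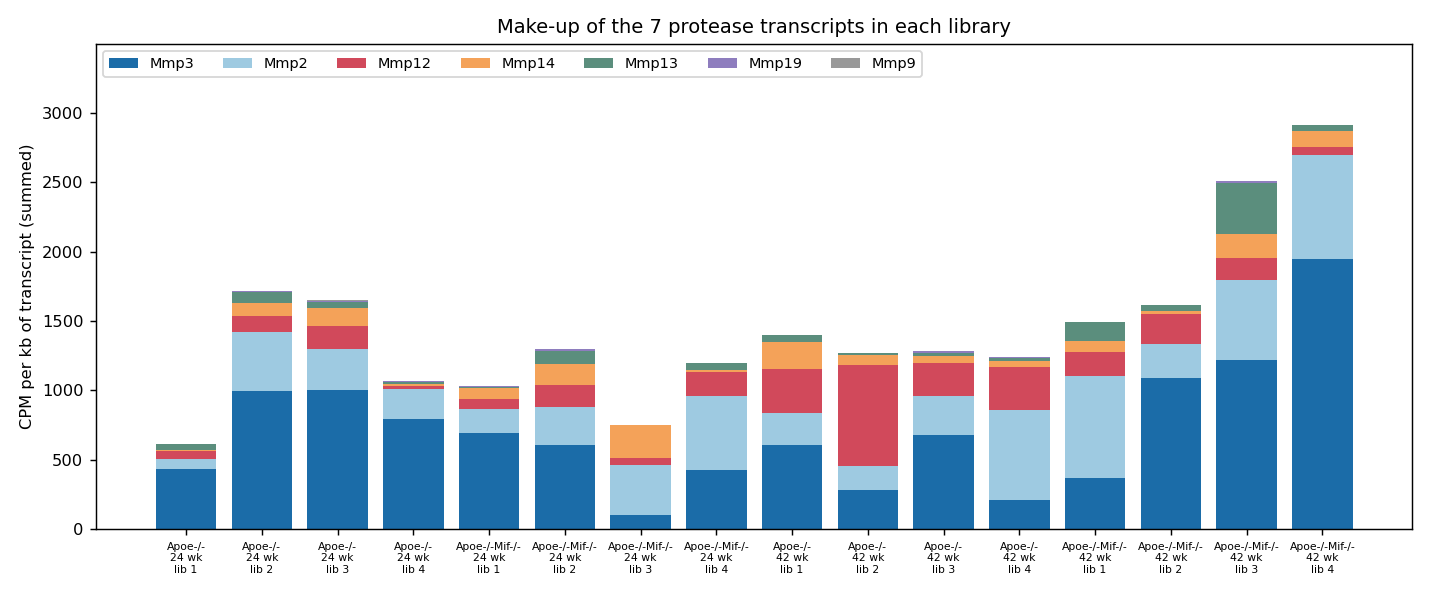
CPM per kilobase of transcript of the 7 proteases, stacked for each of the 16 libraries. Mmp12 takes 57.5% of the sum in library 2 of the 42-week Apoe-/- group and 1.98% in library 4 of the 42-week Apoe-/-Mif-/- group, where Mmp3 takes 66.8%.

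Set against the proteases, the inhibitors were most abundant in 24-week mice without Mif. The 3 inhibitors summed per kilobase, divided by the 7 proteases, gave ratios of 2.33, 1.26, 2.11 and 1.88 in these libraries. The ratios were 0.695, 0.895, 1.15 and 0.361 in 24-week Apoe-/- libraries. They were 0.490, 1.03, 0.861 and 0.942 in 42-week Apoe-/- libraries and 0.722, 0.391, 0.359 and 0.763 in 42-week Apoe-/-Mif-/- libraries. The 24-week Apoe-/-Mif-/- libraries thus lay above the other 12. They were also the only ones with the letter C in their column names, from which their group cannot be told apart. Group means were 0.775 ± 0.332, 1.89 ± 0.462, 0.830 ± 0.237 and 0.559 ± 0.214 (SD, n = 4). Timp1 carried the pattern. Without it the means were 0.257, 0.357, 0.365 and 0.295, and the groups overlapped. Without division by length the means were 0.637, 1.08, 0.640 and 0.551 in the same order, and the separation was lost: the lowest 24-week Apoe-/-Mif-/- library was at 0.866 and library 2 of the 42-week Apoe-/- group at 0.932. The sum over members was chosen with the data in view and has no test.

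**Figure D4:**
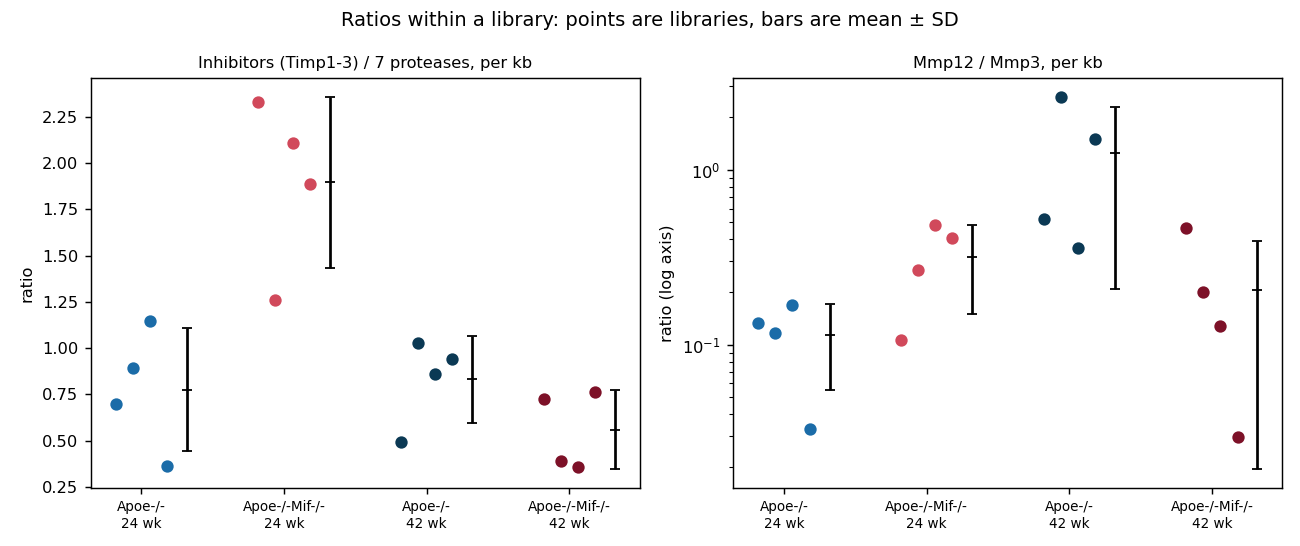
Left, the 3 inhibitors over the 7 proteases in each library, and right, Mmp12 over Mmp3 (log axis), both from CPM per kilobase, by group, with bars for the mean ± SD of 4 libraries. The 24-week Apoe-/-Mif-/- libraries lie at 1.26 to 2.33 on the left, above the other 12, and the 42-week Apoe-/- libraries at 0.356 to 2.60 on the right.

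The genes most alike a member over the 16 libraries were taken as the 3 with the highest Pearson correlation of log2 CPM among 9427 genes with counts in at least 12 libraries. The libraries share depth and tissue make-up, so these are descriptions. Mmp12 was most like Ctsb, the lysosomal protease cathepsin B (r = 0.893), the ferritin pseudogene Ftl1-ps1 (0.850), whose reads cannot be told from those of its parent gene with certainty, and Itgax, the integrin CD11c of dendritic cells and foamy macrophages (0.827). Timp1 was most like Sod3, the extracellular superoxide dismutase of the arterial wall (0.834), Msn (0.834) and Plxnb1 (0.833). Timp2 was most like Tnfrsf1b, the second receptor of tumour necrosis factor (0.890), Tspan4 (0.882) and Cd9 (0.864). Mmp2 was most like Nupr1 (0.884), Vamp2 (0.848) and Meis3 (0.826), and Mmp14 most like Ehd4 (0.845), Rab31 (0.833) and Gosr2 (0.821). For Mmp3 the highest values were lower, with Tmem33 (0.759), Vps9d1 (0.744) and Cpsf6 (0.743), as for Mmp13 with Hgsnat (0.785), Arhgef19 (0.754) and Dffa (0.730). Mmp19 was most like Prkar2a (0.874), Ube2f (0.865) and Stard5 (0.832), and Trim27 (0.911) and Myd88 (0.879) were among the genes most like Timp3. Between members, the neighbours on chromosome 9 with an AP-1 match did not all vary together. The highest values were 0.607 for Mmp3 with Mmp13, whose Spearman value was 0.285, and 0.606 for Mmp12 with Timp2. Mmp3 with Mmp12 gave -0.145.

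The rest of the system was taken as lists: 16 other metalloproteinases (6 tested), 9 other inhibitors and modulators (7), 16 genes of plasminogen and protease activation (11), 16 ADAM and ADAMTS proteases (15) and 9 subunits of AP-1 (8). Of these, 1 gene passed in 1 comparison. Mmp28, epilysin, a protease of epithelia and macrophages, passed for the interaction (log2 15.08 ± 3.30 SE, edgeR adjusted p = 0.0294). It rested on few libraries, with 67, 2, 2 and 296 counts in 24-week Apoe-/-, 0 in all 4 24-week Apoe-/-Mif-/-, 2, 1, 2 and 2 in 42-week Apoe-/- and 3, 0, 342 and 332 in 42-week Apoe-/-Mif-/- libraries. Because 1 group is at 0, the fitted value and its SE depend on the prior count and are no measure of size. The call was lost without any 1 of 9 libraries (edgeR adjusted p of 0.0536 to 0.0708), without the 3 libraries that stand apart (log2 9.43, adjusted p = 0.244) and in limma with voom (adjusted p = 0.587). At an unadjusted p under 0.05, in the order of the 7 comparisons above, the other metalloproteinases held 1, 1, 1, 2, 0, 2 and 1 genes and the other inhibitors 0, 1, 0, 1, 0, 0 and 1. The activation genes held 1, 2, 0, 2, 0, 0 and 1, the ADAM and ADAMTS proteases 0, 2, 1, 2, 1, 3 and 2, and the AP-1 subunits 0, 0, 1, 2, 0, 2 and 0. Over all genes the shares were 7.33%, 17.3%, 12.2%, 13.1%, 13%, 13.6% and 14.2%.

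Apart from Mmp28, none of the genes of these lists named by their p passed. Timp4, a further inhibitor of the family, was at 17.5, 0, 1.20 and 455 CPM in 42-week Apoe-/-Mif-/- libraries and at most 6.28 CPM in 42-week Apoe-/- libraries (log2 6.06 ± 1.95 SE, edgeR adjusted p = 0.176), so that 1 library set the difference. Serpine2, protease nexin-1, an inhibitor of thrombin and plasminogen activators, held 717, 519.7, 685 and 979 CPM in 42-week Apoe-/- and 6554, 806, 1313 and 3287 CPM in 42-week Apoe-/-Mif-/- libraries (log2 2.04 ± 0.64, edgeR adjusted p = 0.176), with 1 library of overlap. Fos, an AP-1 subunit, averaged 202 ± 135 CPM at 24 weeks and 16.2 ± 11.1 CPM at 42 weeks in Apoe-/-Mif-/- mice (SD, n = 4; log2 -3.65 ± 1.25 SE, edgeR adjusted p = 0.237). Fos did not overlap between these groups, as for 3.03% of all tested genes in this direction. Jun, its partner, averaged 27.6 ± 21.6 and 294 ± 534 CPM in the same groups, the latter set by 1 library at 1095 CPM (log2 3.41 ± 1.30, edgeR adjusted p = 0.272). Pcsk6, a proprotein convertase, had its highest level in library 4 of the 24-week Apoe-/- group, at 189 CPM. Adamts9 and Adam12, proteases of the related ADAM families, had theirs in library 1 of that group, at 120.2 and 192 CPM. Both libraries are among those that stood apart. Pcsk6, Adamts9 and Adam12 passed in no comparison.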

How the data were processed

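Gene counts were deposited by the authors as whole-number reads per gene for 16 libraries, made from 1 ng of RNA by Smart-seq2, per the labels' protocols, a full-length cDNA method that marks neither single molecules nor strand. Per the submitters' processing notes, cutadapt 1.18, Trim Galore 0.6.4, FastQC 0.11.5, STAR 2.5.2b and the build GRCm39 were used. The counting program and annotation are not given in the sources used here. A deposited table of variance-stabilised log2 values (9578 genes, by the authors) served as an alternative only. The unnamed row (at most 0.00257% of counts) and 2 reporter rows were left out.

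Counts were fitted over all 16 libraries with edgeR 4.0.16 (R 4.3.3; TMM scaling, filter at a minimum count of 10 and total of 15, quasi-likelihood test, Benjamini-Hochberg threshold 0.05, n = 4 mice a group). The edgeR test gives no standard error, so each SE given is the absolute log2 difference divided by the square root of the F statistic. DESeq2 1.42.0 and limma 3.58.1 were alternatives. The fit was tested on simulated data: for Mif deletion at 24 weeks, 0% of 4-fold, 12% of 16-fold, 64% of 64-fold and 64% of 256-fold changed genes were recovered among 10359 genes (200 changed), with 1 false call. This was a single simulated data set with changed genes drawn from all tested genes. Genes lost to the filter counted as not recovered. The tested members other than Mmp19 had a lower biological coefficient of variation in the fit than the median gene, so these shares do not describe the members. Log2 CPM used a prior count of 2. Transcript lengths came from GENCODE M21 (GRCm38), while the counts use GRCm39. Tables and figures used python 3.11.15, numpy 2.4.6, pandas 2.3.3, scipy 1.17.1 and matplotlib 3.10.9.

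The members and lists were chosen with earlier results of these data known. Named beside the members were every gene of the protease lists called in any comparison, the 2 with the smallest p in each comparison, and the 3 genes most alike each member, of which 1 is not reported here. The Smart-seq2 libraries hold PCR copies, so floors cover counting error only. Summed levels of 14 marker lists were computed, and those named are the ones set beside a result.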

Additional observations from a re-analysis of the deposited data

Results flagged for a closer look

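Within groups of 4 libraries, 42 sets of values were examined for a single library far from the other 3, and 8 were found. The limit used would be passed by about 1 in 20 sets of normally distributed values. CPM need not be so distributed, and a set with counts in a single library, as for Mmp9, passes it at any level. The 8 are thus not set against chance. Mmp12 stood at 2635 CPM in library 2 of the 42-week Apoe-/- group, beside 866 to 1140.3 CPM in the other 3. The same library held Timp3 at 558 CPM, the highest macrophage marker sum (44177 CPM) and erythroid markers at 20088 CPM. Timp3 also stood at 589.6 CPM in library 4 of the 42-week Apoe-/-Mif-/- group, beside at most 80.2 CPM in the rest. Mmp19 stood at 38.4 CPM in library 2 of the 24-week Apoe-/-Mif-/- group and at 29.5 CPM in library 3 of the 42-week Apoe-/-Mif-/- group. Mmp9 was at 3.70, 0.812 and 2.11 CPM in single libraries of the 24-week Apoe-/-, 24-week Apoe-/-Mif-/- and 42-week Apoe-/- groups, with 0 counts in the other 3 each time. The last value is 1 count.

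The effect of Mif deletion differed between durations for Mmp28, by the interaction test (log2 15.08, edgeR adjusted p = 0.0294). That value was set against a group with 0 counts, and the call was lost without any 1 of 9 libraries.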

How the results depend on the processing

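The count of members called was 0 under the edgeR and limma alternatives. DESeq2 called 1 for duration in Apoe-/- mice and 1 for duration over both genotypes, both Mmp12. Over all genes, edgeR called 5, 0, 0, 13, 0, 4 and 73 (Mif deletion at 24 and 42 weeks, duration in Apoe-/- and in Apoe-/-Mif-/- mice, Mif deletion over both durations, duration over both genotypes, interaction). With DESeq2 size factors these were 0, 0, 0, 22, 0, 16 and 64, without a filter 117, 150, 18, 419, 141, 368 and 426, with DESeq2 207, 902, 372, 562, 392, 497 and 546, and with limma 0 in each. Without the 3 libraries that stand apart they were 0, 0, 0, 40, 0, 2 and 0, and with only the 8 libraries compared 0, 25, 0 and 12 for the first 4. Over 47 gene comparisons and 1070 values, 60 changed sign, in 19 comparisons. The cause was not tested. No paired analysis was possible because the labels give each mouse its own number and replicate numbers follow accession order only.

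With DESeq2 size factors in edgeR, Mif deletion at 42 weeks gave -0.055 (Mmp14) and -0.0050 (Timp1), duration in Apoe-/- mice 0.34 (Timp1) and in Apoe-/-Mif-/- mice 0.16 (Mmp14). DESeq2 gave -0.054, -0.0045, 0.34 and 0.16 for these. With voom, Mif deletion at 42 weeks gave -0.21 (Timp1) and -0.37 (Timp3), duration -0.42 (Mmp19, Apoe-/-) and 0.091 (Mmp14, Apoe-/-Mif-/-), and the interaction 0.24 (Mmp19) and -0.061 (Timp2). On the deposited log2 values Timp1 gave -0.23 (Mif deletion at 42 weeks) and 0.45 (duration in Apoe-/-), and Mmp14 0.54 (duration in Apoe-/-Mif-/-). With only the 8 libraries compared, Mmp14 gave -0.011 for Mif deletion at 42 weeks.

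Without the 3 libraries that stand apart, an alternative chosen after seeing the data, Mif deletion at 24 weeks gave -0.13 (Mmp2), -0.33 (Mmp12) and -0.39 (Timp2) and at 42 weeks -0.030 (Timp1) and -0.36 (Timp3). Mmp14 gave -0.97 for duration in Apoe-/- mice and 0.68 for the interaction.

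Leaving out 1 library at a time, the ranges that crossed 0 were as follows. Mif deletion at 24 weeks gave -0.91 to 0.19 (Mmp13) and -0.0068 to 0.60 (Timp2). At 42 weeks it gave -0.28 to 0.80 (Mmp14), -0.92 to 0.51 (Timp1) and -2.35 to 2.24 (Timp3). Duration in Apoe-/- mice gave -0.13 to 0.78 (Mmp2), -0.24 to 0.82 (Mmp19), -0.57 to 0.23 (Timp1) and -2.17 to 0.34 (Timp3). In Apoe-/-Mif-/- mice it gave -0.69 to 0.32 (Mmp14), -2.45 to 1.97 (Mmp19) and -1.35 to 2.01 (Timp3). The interaction gave -2.78 to 1.55 (Mmp19), -0.32 to 0.43 (Timp2) and -1.30 to 3.28 (Timp3). For Mmp28 it gave 13.58 to 16.07 (edgeR adjusted p 0.0148 to 0.0708). Ranges that kept their sign included 1.58 to 3.11 for Mmp13 (Mif deletion at 42 weeks, lowest without library 3 of the 42-week Apoe-/-Mif-/- group) and -1.62 to -0.90 for Mmp12 there. For Mmp12, duration in Apoe-/- mice gave 1.71 to 2.59 (edgeR adjusted p 0.269 to 0.440).

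Inhibitor to protease ratios without Timp1 averaged 0.257, 0.357, 0.365 and 0.295 (24-week Apoe-/-, 24-week Apoe-/-Mif-/-, 42-week Apoe-/-, 42-week Apoe-/-Mif-/-), and 1.08 in the 24-week Apoe-/-Mif-/- group without length. The biological coefficient of variation in the fit limits which differences could pass. It was read from a trend over expression level and is not the spread of each gene. Its median over all tested genes was 1.32. For the tested members it ran from 0.838 (Timp2) to 1.03 (Timp3), apart from Mmp19 at 1.44. Mmp9 had too few counts to be tested, and Mmp19 had at least 10 counts in 8 libraries.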
